A study of Macaca nemestrina with 58 samples.

Results

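Chemokines, interleukins and the receptors that read them were followed in vaginal pinch biopsies of pig-tailed macaques (Macaca nemestrina) before and during hormonal contraception. The genes were taken by symbol from the array annotation: every gene whose single symbol is CCL, CXCL, CCR, CXCR or IL followed by a number, without CXCR4, IL18 and symbols beginning IL1A, IL1B, IL1R or IL36. This gave 98 of the 14132 named genes on the array, and each was represented by its brightest probe set. They are 21 CC chemokines, 9 CXC chemokines, 10 chemokine receptors, 30 interleukins and 28 interleukin receptors or binding proteins. The symbol rule also takes IL4I1, which encodes a secreted amino acid oxidase rather than a receptor.

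Chemokines are small secreted proteins that bind G protein-coupled receptors and draw leukocytes towards their source. Interleukins are secreted signals between leukocytes, epithelium and stroma, and most of their receptors pair a ligand-specific chain with a shared signalling chain. In the vaginal mucosa both families are known for setting which T cells, macrophages and neutrophils enter the tissue, and for signalling by the squamous epithelium itself.

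The study biopsied 15 animals on 58 arrays of an Affymetrix design for the rhesus macaque, so the probes read a related species. DMPA, the injected progestin depot medroxyprogesterone acetate, was given to 9 animals at doses labelled 0.5, 1.5 and 2.5 with no unit. The other 6 animals belong to the arm labelled LNG, the abbreviation of the progestin levonorgestrel, which the series text describes as a combined oral contraceptive. Every animal also gave 1 or 2 untreated baseline biopsies.

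The groups were 8 DMPA biopsies at the time labelled 1D4, 9 DMPA biopsies at the time labelled 2D2, and 6 LNG biopsies at each of the times labelled 5th and 7th. Of the LNG animals, 3 carry the label High and 3 the label Low. The series text places the post-treatment biopsies 5 weeks after the first oral dose and 2 weeks after the second DMPA injection. The mark (A-) on 1 array at LNG 5th and 4 at LNG 7th has no stated meaning. The 28 baseline samples, 17 from DMPA animals and 11 from LNG animals, came from the early follicular (10 samples), late follicular (5), early luteal (4) and late luteal (9) phases. No group of untreated animals was sampled at the later times in these data, so treatment and elapsed time cannot be told apart. Ages are not given in the labels. Since a biopsy mixes epithelium, stroma and leukocytes, fewer cells of a type and less RNA per cell cannot be told apart.

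Values are log2 expression as the authors deposited them, and a difference of 1 on this scale is a doubling of signal. A probe set was tested where its mean over the 57 samples reached the 40th percentile of all probe sets, a log2 level of 5.53. Of the 98 genes, 66 were tested: 14 CC chemokines, 8 CXC chemokines, 6 chemokine receptors, 18 interleukins and 20 interleukin receptors or binding proteins. The other 32 were dim: CCL11, CCL14, CCL16, CCL23, CCL24, CCL26, CCL28, CCR2, CCR3, CCR4, CCR8, CXCL8, IL12A, IL12B, IL13RA2, IL17A, IL17RB, IL17RD, IL17REL, IL18RAP, IL20, IL21, IL22, IL23R, IL24, IL26, IL3, IL31RA, IL4, IL5RA, IL6 and IL9. CXCL14, IL7R, IL22RA1 and IL18BP were not analysed here.

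Several measures of the biopsies moved with treatment and stand beside every result that follows. For the GAPDH control probe sets, the 3′ level minus the 5′ level, which grows as RNA degrades, was higher at DMPA 2D2 by 0.742 than in the same animals at baseline, in 8 of 9 animals (exact within-animal permutation test, adjusted p = 0.00610 over 60 such tests). The same measure of actin was higher by 0.230 in 7 of 9 animals (same test, adjusted p = 0.0309). The score of squamous suprabasal markers, the mean of keratins and cornification genes of the upper epithelium, fell by 3.73 and was lower in 8 of 9 animals (adjusted p = 0.00610), and 11 of its 12 tested markers passed as lower. The columnar epithelium score was higher by 1.01 in 9 of 9 animals (adjusted p = 0.0103), and 7 of its 9 tested markers passed as higher. The common leukocyte score differed by 0.452 and was higher in 9 of 9 animals without passing (adjusted p = 0.0984). Of 8 tested T cell markers 1 passed as higher, and of 15 tested macrophage and dendritic markers 1 passed as higher and 2 as lower. The neutrophil list fell by 1.06 (adjusted p = 0.00610). Of its 4 tested markers, 3 passed as lower, and these were S100A8, S100A9 and S100A12, which squamous epithelium also expresses. The part of these measures in the results on chemokines and interleukins was not tested beyond the fits with a covariate given below.

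Biopsies taken at DMPA 2D2 showed lower transcripts of the interferon-induced chemokines CXCL10 and CXCL11 and of the monocyte attractant CCL2 than the baseline biopsies. The receptor chain IL27RA and the neutrophil attractant CXCL6 were higher. Of the 66 tested genes 13 passed at an adjusted p under 0.05, 4 higher and 9 lower, which is 19.7% of them. Over all 11199 named genes tested, 31.3% passed, 17.2% higher and 14.1% lower, so the share among these genes was below the background. At an unadjusted p under 0.05 the counts were 20 of 66 genes and 44.5% of all named genes. Their median change was 0.03 log2, and the median over all named genes was 0.05. All 13 calls rest on limma with the animal as a block.

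The ligands come first. CXCL10, CXCL11 and CXCL9 are induced by interferon gamma and share the receptor CXCR3, through which they attract activated T cells. CXCL10 lay at 4.44, 7.47 and 10.19 (lowest, median and highest log2 level) in the 9 DMPA 2D2 samples, against 7.04, 9.20 and 12.41 in the 17 baseline samples of the DMPA animals. Its DMPA 2D2 samples reached lower than any baseline sample while the upper parts of both groups overlapped. The fitted change was -1.58 ± 0.55 log2 (SE), with a limma adjusted p of 0.0301, and the gene was lower in 8 of 9 animals.

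CXCL11 lay at 9.11, 9.87 and 10.82 in DMPA 2D2 samples, against 9.82, 10.90 and 11.58 at baseline. The median of the treated samples stood close to the lowest baseline sample. The change was -0.84 ± 0.17 (limma adjusted p = 0.000659), and every one of the 9 animals was lower. A second, dimmer probe set of CXCL11 differed by -1.28 and did not pass (adjusted p = 0.0541).

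CXCL9 had 4.68, 6.79 and 9.03 in DMPA 2D2 samples, against 5.79, 7.75 and 10.90 at baseline. It differed by -1.16 ± 0.52 and was lower in 9 of 9 animals, yet it did not pass (limma adjusted p = 0.0911). Their receptor CXCR3 differed by 0.18 ± 0.19, with a 95% interval between -0.21 and 0.56, and was higher in 5 of 9 animals.

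CCL2 attracts monocytes through CCR2, which was too dim to test. It lay at 5.57, 7.69 and 8.96 in DMPA 2D2 samples, against 6.89, 8.86 and 11.00 at baseline. The upper baseline levels were not reached by any treated sample. The change was -1.52 ± 0.39, 2.87-fold lower (limma adjusted p = 0.00442), in 8 of 9 animals. The animal that went the other way for CCL2 was also the 1 that did so for CXCL10, BB770, which received the dose labelled 0.5. In BB770 the GAPDH 3′ minus 5′ difference was 1.39 at DMPA 2D2, against 1.53 and 1.34 at baseline.

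CCL21, which guides dendritic cells into lymphatic vessels through CCR7, had 8.94, 9.65 and 9.99 in DMPA 2D2 samples, against 9.60, 10.04 and 10.33 at baseline. The shift was small beside that of CCL2 but every animal was lower, by -0.37 ± 0.09 (limma adjusted p = 0.00235). A second probe set of CCL21 differed by -0.59 and did not pass. CCR7 itself differed by -0.06 ± 0.18.

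CXCL6 acts on neutrophils through CXCR1 and CXCR2. It had 9.78, 10.11 and 10.37 in DMPA 2D2 samples, against 8.81, 9.51 and 10.16 at baseline. The median treated sample lay near the top of the baseline range. The change was 0.55 ± 0.12 (limma adjusted p = 0.00111), all 9 animals were higher, and a second probe set of CXCL6 passed too, at 0.56.

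Among the interleukins, IL5 and IL2 passed as higher and none passed as lower, of 18 tested. IL5, the growth factor of eosinophils, had 6.16, 7.06 and 7.53 in DMPA 2D2 samples, against 4.71, 6.29 and 7.72 at baseline, a change of 0.65 ± 0.21 (limma adjusted p = 0.0194) that was higher in 6 of 9 animals. IL2, the growth factor of T cells, had 8.81, 9.58 and 10.92 in DMPA 2D2 samples, against 7.42, 9.23 and 10.07 at baseline. Its change was 0.49 ± 0.17 (limma adjusted p = 0.0305), higher in 6 of 9 animals, and a second probe set of IL2 differed by 0.24 without passing. For both interleukins the treated range lay mostly inside the baseline range. Both calls ended with the leukocyte score as a covariate, where IL5 differed by 0.58 (adjusted p = 0.0770) and IL2 by 0.26 (adjusted p = 0.240), and with no replicate block (adjusted p = 0.0813 for IL5 and 0.0704 for IL2).

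Among the tested receptors the largest change was that of IL27RA, the specific chain of the receptor for the cytokine IL27, expressed mainly by T cells and other leukocytes. It had 8.16, 9.37 and 10.39 in DMPA 2D2 samples, against 6.30, 8.52 and 10.05 at baseline. Low values below 8 occurred at baseline and not among the treated samples. The change was 1.10 ± 0.27, 2.15-fold higher (limma adjusted p = 0.00355), in 9 of 9 animals. Of its other probe sets, 1 passed at 0.95 and the other differed by -0.07. Its ligand IL27 was tested and did not pass.

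With the common leukocyte score as a covariate the change of IL27RA was 0.56 at DMPA 2D2 (adjusted p = 0.0113), and 0.43 at DMPA 1D4, where the call ended (adjusted p = 0.0623). The 3 named genes outside these families whose levels were most like those of IL27RA over the 57 samples were LIMD2 (Pearson r = 0.927), PCED1B (r = 0.891) and PTPRC (r = 0.876). PTPRC, which encodes the pan-leukocyte surface protein CD45, is itself 1 of the 8 genes of that leukocyte list. Those most like CXCL10 were NLRC5 (r = 0.802), GBP1 (r = 0.748) and EPSTI1 (r = 0.744), all of them known as interferon-induced genes. These correlations describe samples that share animals and tissue makeup.

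The lower receptor genes had smaller changes. IL20RA, which pairs with IL20RB to receive IL19, IL20 and IL24 in epithelium, had 7.62, 8.19 and 8.87 in DMPA 2D2 samples, against 7.97, 8.87 and 9.28 at baseline, a change of -0.57 ± 0.17 (limma adjusted p = 0.0140) in 7 of 9 animals. IL20RB differed by -0.35 ± 0.27 without passing. IL17RC, which joins IL17RA in the receptor for IL17A and IL17F, fell by 0.31 ± 0.08 (limma adjusted p = 0.00470) in 9 of 9 animals, and its second probe set passed at -0.57. IL17RA differed by -0.06 ± 0.09.

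CCR10, the receptor of skin and mucosal lymphocytes for CCL27 and CCL28, fell by 0.27 ± 0.08 (limma adjusted p = 0.00943) in 8 of 9 animals. IL4I1 fell by 0.24 ± 0.08 (limma adjusted p = 0.0270) and IL9R by 0.19 ± 0.07 (limma adjusted p = 0.0414), each in 7 of 9 animals. A second probe set of IL9R differed by -0.17 without passing.

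**Figure D1:**
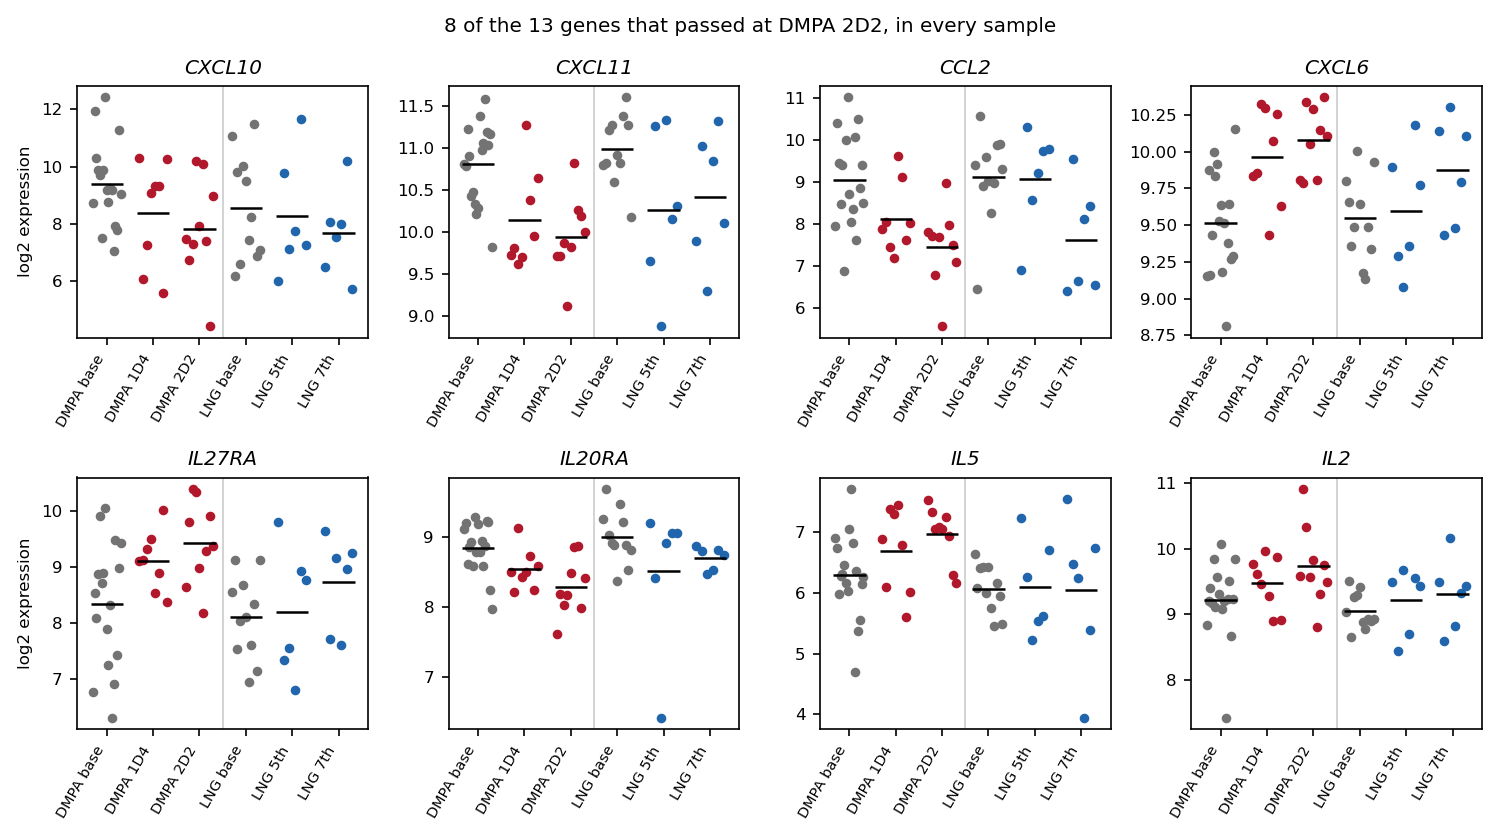
Log2 expression (vertical axes) of CXCL10, CXCL11, CCL2, CXCL6, IL27RA, IL20RA, IL5 and IL2 in every sample, with points for samples and bars for group means, by arm and time from baseline (17 DMPA and 11 LNG baseline samples). CXCL10, CXCL11 and CCL2 lie lower and IL27RA and CXCL6 higher at DMPA 2D2, while the groups overlap in every panel.

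The counts at DMPA 2D2 depended on how RNA quality was handled and on single animals. With the GAPDH 3′ minus 5′ difference as a covariate 0 of the 66 genes passed, and 0 of all 31624 probe sets passed. In that fit CXCL10 differed by -0.57, CCL2 by -0.96, CXCL11 by -0.24, IL27RA by 0.53 and CXCL6 by 0.38, and IL2 by -0.0043. With no replicate block 8 of the 66 passed, and 8 passed without animal BB0499 or without BB0540. Of all 31624 probe sets, 5816 passed with no replicate block, 6598 without BB0499 and 5940 without BB0540. CXCL10 itself no longer passed without BB0499 (-1.42), BB0540 (-1.35) or PHQ1 (-1.34), IL20RA without BB0499 (-0.44) or PHQ1 (-0.48), and IL5 without BB0540 (0.58) or BB981 (0.55). IL2 no longer passed without BB0499, BB0540, BB108, BB981 or PHQ1 (0.34 to 0.48), and IL4I1 without BB0499, BB0540, BB405 or BB981 (-0.23 to -0.20). IL9R no longer passed without BB0499, BB0540, BB108, BB405, BB981, PHQ1 or PPi2 (-0.19 to -0.16).

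The other members of wide interest did not pass at DMPA 2D2. IL33, an alarm cytokine stored in epithelial and endothelial nuclei, had 8.27, 10.25 and 10.85 in DMPA 2D2 samples, against 7.30, 9.37 and 10.51 at baseline. It differed by 0.95 ± 0.45, was higher in 9 of 9 animals, and had a limma adjusted p of 0.105. CCL5, a T cell attractant, differed by 0.45 ± 0.26. CCL20, the epithelial ligand of CCR6, differed by 0.82 ± 0.84 with a 95% interval between -0.88 and 2.51, and CCR6 by 0.22 ± 0.18. The mucosal chemokine CXCL17 differed by -0.64 ± 0.33, and the stromal chemokine CXCL12 by -0.32 ± 0.25.

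The remaining interleukins and receptors of that kind stayed within narrower limits. IL7 differed by 0.43 ± 0.19 (95% interval 0.04 to 0.81), and IL15 by 0.24 ± 0.21. IL10 differed by -0.25 ± 0.14, IL34 by -0.03 ± 0.14 and IL37 by -0.13 ± 0.18. IL2RG, the chain shared by the receptors of IL2, IL7 and IL15, differed by 0.29 ± 0.20. IL6ST, the signalling chain of the IL6 family, differed by 0.25 ± 0.18 and IL6R by 0.09 ± 0.12.

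The dim genes were not tested. CXCL8, a neutrophil attractant, had 4.45, 5.06 and 5.22 in DMPA 2D2 samples, against 4.37, 5.33 and 9.37 at baseline in the DMPA animals, and it reached 12.31 in 1 early follicular sample. IL6 had 3.92, 4.14 and 6.43 in DMPA 2D2 samples, against 3.80, 4.34 and 6.41 at baseline. CCL28 had 3.90, 4.24 and 4.53 in DMPA 2D2 samples, against 3.68, 4.07 and 4.45 at baseline. IL13RA2, a decoy receptor for IL13, is named after its values were seen. The mean change of IL13RA2 from each animal's own baseline was 1.29 at DMPA 2D2, higher in 7 of 9 animals, and in the LNG arm 1.66 at LNG 5th and 2.04 at LNG 7th, higher in 6 of 6 at each.

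CCL25, an intestinal and thymic attractant, shows how far the choice of probe set matters. Its brightest probe set differed by 0.06 at DMPA 2D2, while another passed as lower at -1.91 (limma adjusted p = 0.00142) and the others differed by -0.35 and -0.06. Of the 66 tested genes, 21 have several kept probe sets.

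The earlier DMPA time, 1D4, gave a partly overlapping set of genes. Of the 66 genes 10 passed, 6 higher and 4 lower, 15.2% of them against 25.8% of all named genes (11.7% higher and 14.1% lower). At an unadjusted p under 0.05 the counts were 15 genes and 41.5% of all named genes. Both DMPA times share their baseline samples, and 6 genes passed at both: CXCL11, CXCL6, IL27RA, IL17RC, IL9R and IL4I1. CXCL11 had 9.61, 9.88 and 11.27 in DMPA 1D4 samples and changed by -0.68 ± 0.18 (limma adjusted p = 0.00920), lower in 6 of 8 animals. CXCL6 had 9.43, 9.96 and 10.32 and changed by 0.48 ± 0.12 (adjusted p = 0.00871), higher in 7 of 8. IL27RA had 8.37, 9.11 and 10.02 and changed by 0.90 ± 0.29 (adjusted p = 0.0244), higher in 6 of 8. IL17RC fell by 0.32 ± 0.08 in 8 of 8 animals, IL9R by 0.28 ± 0.07 and IL4I1 by 0.25 ± 0.09, each of the last 2 in 6 of 8. At DMPA 1D4 no other kept probe set of CXCL11, IL27RA or IL9R kept the call, while those of CXCL6 and IL17RC did.

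The genes called at DMPA 1D4 and not at 2D2 were mostly receptors. IL11RA, the specific chain of the receptor for IL11, had 8.08, 9.10 and 9.59 in DMPA 1D4 samples, against 5.18, 8.27 and 9.25 at baseline. It was 2.17-fold higher, by 1.12 ± 0.38 (limma adjusted p = 0.0305), in 8 of 8 animals. IL6ST, which signals for IL11RA as for IL6R, had 9.97, 10.46 and 11.09 in DMPA 1D4 samples, against 8.90, 9.99 and 11.12 at baseline, and changed by 0.59 ± 0.19 (adjusted p = 0.0241) in 7 of 8. IL12RB2, a chain of the receptor for the cytokine IL12, changed by 0.32 ± 0.11 (adjusted p = 0.0275) and CCL8, another monocyte attractant, by 0.39 ± 0.14 (adjusted p = 0.0371). A second probe set of IL11RA differed by 0.22 without passing. IL12RB2 has 4 kept probe sets, and not all of the others kept its call.

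CXCL10 differed by -1.11 ± 0.58 and CCL2 by -0.96 ± 0.41 at DMPA 1D4, and neither passed. CXCL12 differed by 0.50 ± 0.27 without passing, while both of its dimmer probe sets passed as higher, at 0.34 and 0.31.

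Measures of tissue makeup at DMPA 1D4 are given beside these calls. The squamous suprabasal score fell by 2.96 and was lower in 7 of 8 animals (exact permutation test, adjusted p = 0.0171), the columnar epithelium score was higher by 1.00 in 8 of 8 (adjusted p = 0.0171), and the neutrophil list fell by 0.870 (adjusted p = 0.0244). The stromal scores did not pass. The smooth muscle score differed by 1.70 at DMPA 1D4 and was higher in 6 of 8 animals (exact permutation test, adjusted p = 0.0855), the fibroblast score by 1.21 in 7 of 8 (adjusted p = 0.0913) and the endothelium score by 0.579 in 7 of 8 (adjusted p = 0.0703). Of 8 tested fibroblast markers 0 passed, and of 6 tested smooth muscle markers 1 passed as higher. With the stroma score as a covariate 0 of the 66 genes passed, IL11RA differed by 0.35 and IL6ST by 0.17. With the GAPDH difference as a covariate 2 of the 66 passed, CXCL11 and CXCL6. The count was 6 with the leukocyte score as a covariate, 4 with no replicate block, 17 with array weights, 4 without animal BB0499, BB981 or PHQ1, and 6 without BB0540. The number of all 31624 probe sets that passed changed as well. It was 57 with the stroma score, 1631 with the GAPDH difference, 2734 with the leukocyte score, 2609 with no replicate block and 11812 with array weights. Without BB0499, BB981, PHQ1 and BB0540 in turn it was 3093, 3314, 3091 and 4164. IL11RA no longer passed without BB0499, BB981 or PHQ1 (1.00 to 1.02), IL27RA without BB0499, BB521, BB981 or PHQ1 (0.70 to 0.82), and IL6ST without BB0499, BB0540, BB981 or PHQ1 (0.50 to 0.60). The call of IL9R ended without BB981 (-0.22), that of CCL8 without any of 5 animals (BB0499, BB0540, BB405, BB981 or PHQ1), that of IL12RB2 without any of 4 (BB0499, BB0540, BB405 or PHQ1) and that of IL4I1 without any of 6 (BB0499, BB0540, BB405, BB981, PHQ1 or PPi2).

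No gene passed between DMPA 2D2 and DMPA 1D4 in limma, with 0 of 66 genes and 0% of all named genes. Of the 66, 1 had an unadjusted p under 0.05, against 5.53% of all named genes. The 3 with the smallest p were CXCL12 (-0.82 ± 0.30), IL11RA (-0.71 ± 0.42) and IL23A (-1.05 ± 0.64), with limma adjusted p values from 0.909 to 0.963. For CXCL10 the 95% interval of the difference between the times ran from -1.80 to 0.85, and for CCL2 from -1.49 to 0.37. These intervals are wide and do not show that the times were alike.

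The doses were not tested, and CXCL10 is given by dose because its values drew attention after they were seen. At DMPA 2D2 the change of CXCL10 from each animal's own baseline was -1.20, -1.31 and 1.09 in the animals at the dose labelled 0.5, -0.71, -0.96 and -1.29 at 1.5, and -3.43, -2.87 and -3.35 at 2.5. At DMPA 1D4 the changes were 0.09 and 0.31 at 0.5, 1.21, -3.90 and -0.11 at 1.5, and -2.28, -0.05 and -4.02 at 2.5. The animals at 2.5 lay below all others at DMPA 2D2. At DMPA 1D4 the doses overlapped, with a fall of several log2 units in 1 animal at 1.5 and little change in 1 at 2.5. The GAPDH 3′ minus 5′ difference at DMPA 2D2 was 2.67, 2.14 and 1.39 in the animals at 0.5. It was 2.25, 2.17 and 2.27 at 1.5, and 2.22, 2.74 and 3.98 at 2.5. Its part in the values of CXCL10 by dose was not tested.

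In the LNG arm no chemokine, interleukin or receptor passed at either time. At LNG 5th 0 of 66 passed and 0% of all named genes did, while 12 of the 66 and 24.3% of all named genes had an unadjusted p under 0.05 in limma. The 3 with the smallest p were CXCL11, CCL21 and IL20RB. CXCL11 had 8.87, 10.23 and 11.33 in LNG 5th samples, against 10.17, 10.92 and 11.60 in the 11 baseline samples of the LNG animals, and differed by -0.77 ± 0.21 (adjusted p = 0.0554). The LNG 5th samples reached below the baseline range and overlapped most of it. CCL21 differed by -0.37 ± 0.11 (adjusted p = 0.0614) and was lower in 6 of 6 animals, although its second probe set differed by 1.33. IL20RB differed by -1.02 ± 0.34 (adjusted p = 0.0812) and was lower in 4 of 6, with 1 sample at 4.82 and the other 5 within the baseline range.

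Other values at LNG 5th were 1.25 ± 0.44 for IL11RA, 0.82 ± 0.31 for CXCL12, which was higher in 6 of 6 animals, and -1.11 ± 0.41 for CXCL17. For CXCL17, the sample of BB4800 stood at 7.50 and the next lowest at 10.96. The same biopsy had the lowest basal keratinocyte score of the LNG 5th samples, 9.57, and the highest smooth muscle score, 12.29. The part of this biopsy's makeup in its values was not tested. CXCL10 differed by -0.55 ± 0.68 and CCL2 by -0.10 ± 0.48. The smooth muscle score was higher by 2.65 in 5 of 6 animals (exact permutation test, adjusted p = 0.0309). Leaving out the array labelled (A-) gave 6 calls at LNG 5th, as did leaving out all samples of its animal, BB4870. The count was 2 without BB269 and 1 without PPi2, a DMPA animal. Of all 31624 probe sets, 2937 passed at LNG 5th without the (A-) array and 3186 without BB4870. The number was 920 without BB269 and 717 without PPi2. The gained calls need therefore not be particular to the chemokine and interleukin genes.

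At LNG 7th 0 of 66 passed, against 0% of all named genes, with 11 of the 66 and 25.4% of all named genes at an unadjusted p under 0.05 in limma. CCL2 had 6.40, 7.38 and 9.53 in LNG 7th samples, against 6.46, 9.30 and 10.55 at baseline, and differed by -1.57 ± 0.48 (adjusted p = 0.0718), lower in 6 of 6 animals. The lowest LNG 7th sample lay just below the baseline range and the groups overlapped. IL11RA differed by 1.35 ± 0.44 (adjusted p = 0.0817), higher in 6 of 6, and CXCL11 by -0.62 ± 0.21 (adjusted p = 0.0888), lower in 6 of 6. The GAPDH 3′ minus 5′ difference was higher in 6 of 6 animals at this time, by 0.466 (exact permutation test, adjusted p = 0.0171), and the same measure of actin by 0.168 in 5 of 6 (adjusted p = 0.0380). The squamous suprabasal score fell by 2.57, lower in 5 of 6 animals (exact permutation test, adjusted p = 0.0247), and the neutrophil list fell by 0.826 in 6 of 6 (adjusted p = 0.0171). Without BB269 1 gene passed, and 1094 of all 31624 probe sets did.

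Between LNG 7th and LNG 5th 0 of 66 genes passed in limma, against 0% of all named genes, and 3 had an unadjusted p under 0.05, against 2.81% of all named genes. These were CCL2 (-1.47 ± 0.54), IL37 (0.60 ± 0.25) and CCL5 (0.78 ± 0.37).

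**Figure D2:**
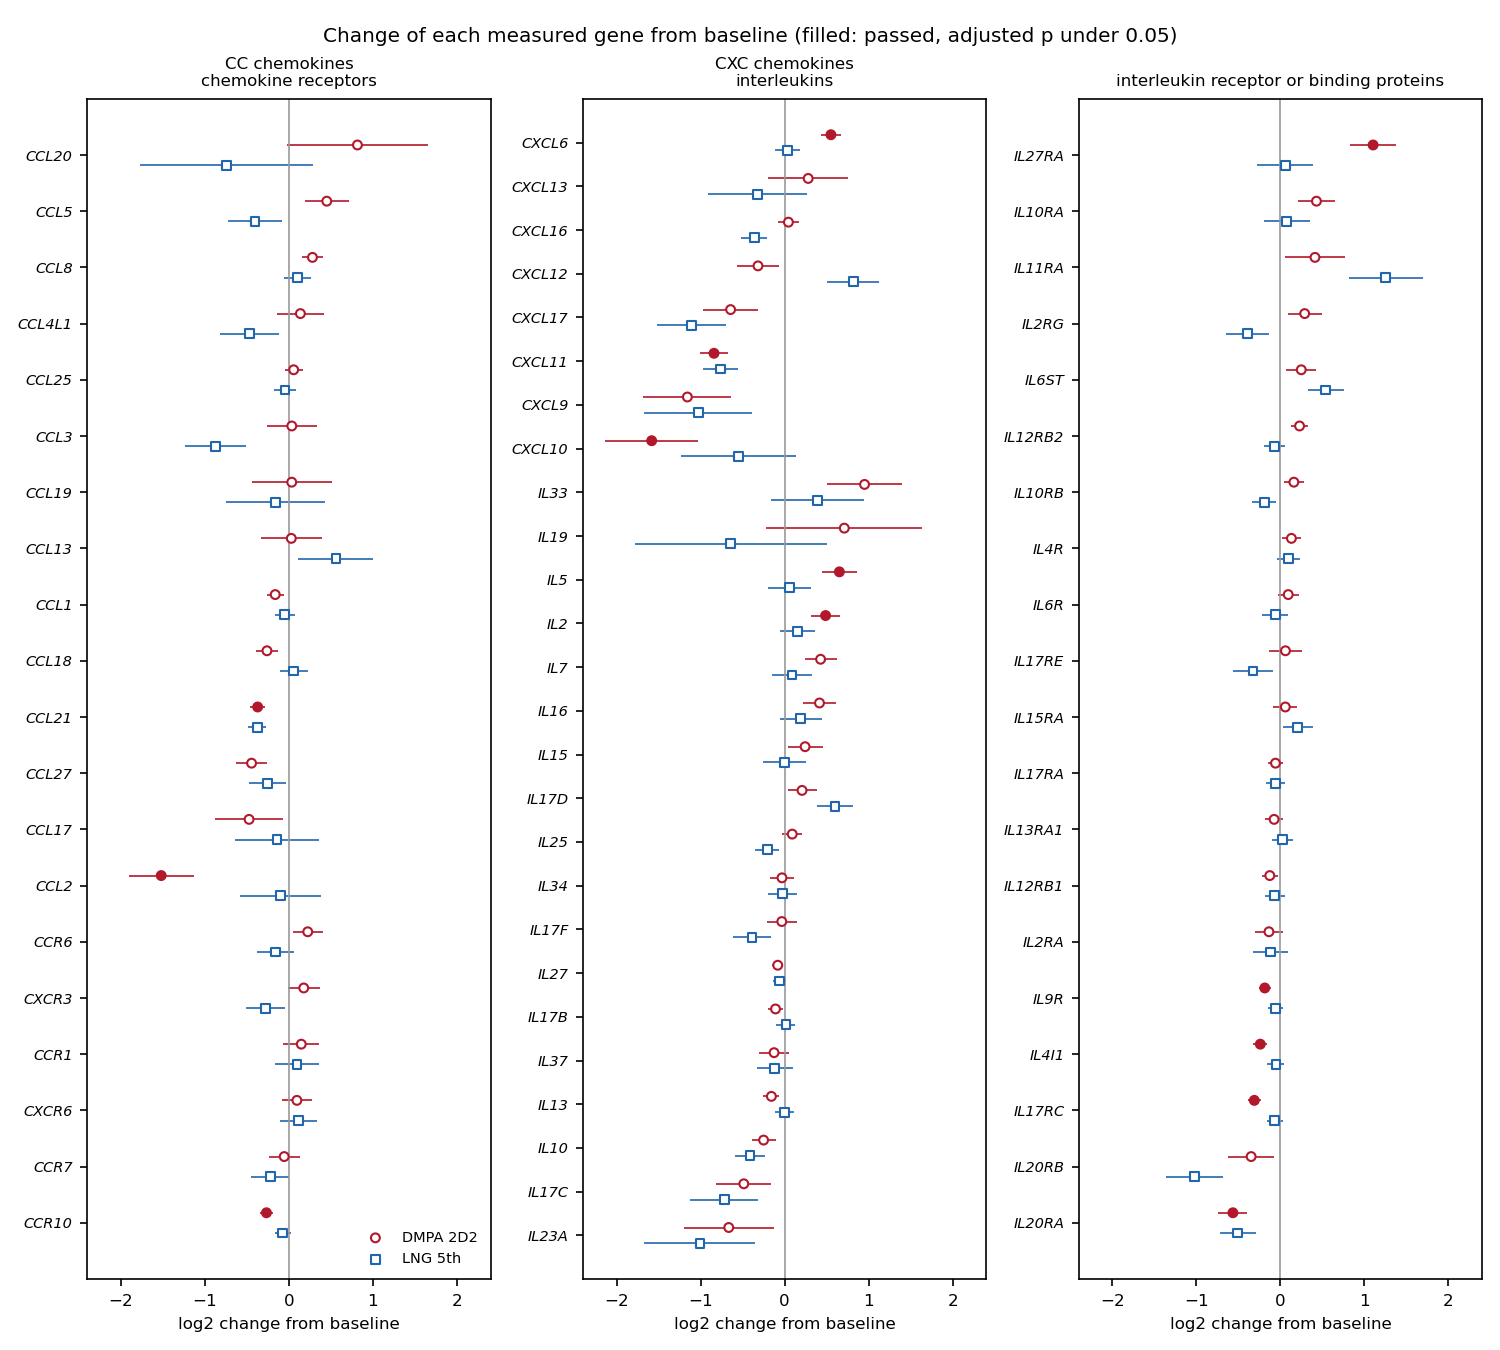
Fitted log2 change from baseline (horizontal axes, bars are standard errors) of each of the 66 tested genes, grouped by role, for DMPA 2D2 (circles, 9 animals) and LNG 5th (squares, 6 animals), with filled symbols for genes that passed. All 13 filled symbols belong to DMPA 2D2. On the brightest probe sets drawn here, CXCL11 and CCL21 have nearly the same change in both arms. The second probe set of CCL21, not drawn, differed in opposite directions in the arms.

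Whether the arms differed was tested directly, as the change at DMPA 2D2 minus the change at LNG 5th. In limma 0 of 66 genes passed, against 0% of all named genes, and 7 had an unadjusted p under 0.05, against 9.22% of all named genes. CXCL12 had the smallest p, with a difference of -1.14 ± 0.40 and a 95% interval from -1.95 to -0.33 (adjusted p = 0.518). CXCL6 followed at 0.52 ± 0.19 (0.14 to 0.89) and IL27RA at 1.05 ± 0.43 (0.17 to 1.93). CCL2 differed by -1.42 ± 0.62 between the arms (-2.67 to -0.17), with an adjusted p of 0.542. For CXCL11 the difference was -0.07 ± 0.27 (-0.62 to 0.47), for CCL21 0.00 ± 0.14 (-0.28 to 0.28), and for CXCL10 -1.03 ± 0.88 (-2.81 to 0.75). For CXCL9 it was -0.13 ± 0.83 (-1.81 to 1.55). The value of CCL21 is that of its brightest probe set. Its second probe set, given above, differed downwards at DMPA 2D2 and upwards at LNG 5th.

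The other genes of these signalling routes were taken from a list of 46 decoy receptors, non-CC and non-CXC chemokines, kinases, transcription factors and inhibitors, of which 33 were tested. At DMPA 2D2 4 passed as higher and 2 as lower, with a median change of 0.05, where 31.3% of all named genes passed, so the list held fewer calls than that share. STAT6, the transcription factor downstream of the receptor IL4R, changed by 0.39 ± 0.10 (limma adjusted p = 0.00306). The inhibitor SOCS5 changed by 0.29, PIAS1, an inhibitor of STAT proteins, by 0.25, and the adaptor GRB2 by 0.23. CISH, a feedback inhibitor induced by STAT5, fell by 0.51 ± 0.16 (adjusted p = 0.0157), and NFKBIA, the feedback inhibitor of NF-kB, fell by 0.39 ± 0.12 (adjusted p = 0.0161).

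At DMPA 1D4 6 of the 33 passed as higher and 1 as lower, where 25.8% of all named genes passed, again no more than that share. JAK2, a kinase bound to many cytokine receptors, changed by 1.46 ± 0.45 (limma adjusted p = 0.0198), SOCS2 by 0.62, PREX1 by 0.61 and the chemokine CX3CL1 by 0.41, with STAT6 at 0.28 and PIAS1 at 0.24, while CISH fell by 0.55 ± 0.17. Of the 33, 0 passed at LNG 5th, at LNG 7th, between the times of an arm, between the arms or between cycle phases.

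Across the menstrual cycle at baseline no gene of these families passed. In the comparison of luteal with follicular samples 0 of 66 passed, against 3.31% of all named genes (2.33% higher and 0.982% lower), and 14 had an unadjusted p under 0.05 in limma, against 27.3% of all named genes. The 3 with the smallest p were IL25, IL34 and IL2RG. IL25, an epithelial cytokine of type 2 immunity, had 6.32, 6.44, 6.80 and 6.98 in the 4 early luteal samples and 5.82, 6.49 and 7.05 (lowest, median and highest) in the late luteal samples. The 5 late follicular samples had 6.78, 6.98, 7.00, 7.04 and 7.32, and the early follicular samples 6.002, 6.58 and 7.46. Late follicular samples were the highest as a group, and all phases overlapped. The luteal minus follicular difference was -0.34 ± 0.09 (adjusted p = 0.0575).

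IL34, a ligand of the macrophage receptor CSF1R, differed by 0.40 ± 0.13 (limma adjusted p = 0.0899), and IL2RG by 0.51 ± 0.17 (adjusted p = 0.0949). IL33 had 9.32, 9.38, 10.30 and 10.51 in early luteal samples and 8.25, 9.24 and 10.15 in late luteal samples. Its late follicular samples had 6.91, 7.03, 7.44, 7.77 and 7.89, and the early follicular samples 3.93, 9.06 and 9.94. Every luteal sample was above every late follicular sample, while the early follicular samples spanned both. This separation was seen in the values, and how many other genes separate in this way was not counted. Between early luteal and late follicular samples IL33 had no unadjusted p under 0.05 in limma. The luteal minus follicular difference of IL33 was 1.51 ± 0.50 (adjusted p = 0.0999). It includes the early follicular sample of BB967 at 3.93, where the next lowest of that phase had 7.30. In the same comparison 3 of 15 tested macrophage and dendritic markers and 2 of 5 mast cell markers passed as higher, as did 1 marker each of the T cell, natural killer, B and plasma cell, fibroblast and endothelium lists. Their part in these values was not tested.

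Only some animals were biopsied in both phases of a comparison, 6 for late luteal and early follicular. In that comparison 0 of 66 passed in limma, against 0.152% of all named genes (0.0982% higher and 0.0536% lower), and 7 had an unadjusted p under 0.05, against 24% of all named genes. IL6ST differed by 0.74 ± 0.18 (adjusted p = 0.0750) and was higher in the late luteal sample of 6 of 6 animals, IL25 by -0.38 ± 0.10 (adjusted p = 0.0857), lower in 6 of 6, and IL20RB by -0.50 ± 0.15 (adjusted p = 0.101), lower in 5 of 6. IL33 was also higher in 6 of 6, by 1.33 ± 0.57. One of these animals is BB967, whose early follicular sample stood at 3.93, far below the next lowest of that phase at 7.30.

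The neighbouring phases gave 0 calls of 66 each in limma, against 0% of all named genes each. At an unadjusted p under 0.05 the shares of all named genes were 4.72% between late and early follicular, 8.38% between early luteal and late follicular and 8.52% between late and early luteal samples. Between late and early follicular samples, with 1 animal in both, 3 genes had an unadjusted p under 0.05: CXCL12 (-1.27 ± 0.26), CCL13 (-1.30 ± 0.43) and IL10RA (-0.80 ± 0.32). Between early luteal and late follicular samples, also with 1 animal in both, IL2RG alone had one, at 0.82 ± 0.33, followed by IL4R at 0.51 ± 0.24 and IL27RA at 1.17 ± 0.58. Between late and early luteal samples no animal gave both, and 9 genes had an unadjusted p under 0.05, with CXCL12 (1.05 ± 0.29), IL6ST (0.83 ± 0.29) and IL19 (4.93 ± 1.71) having the smallest. With the animal as a block, these values rest on links through the other phases. IL19 itself lay between 3.66 and 11.52 in late luteal samples and between 3.82 and 7.43 in early luteal samples, so the groups overlapped. In the alternative fits its difference ran from 1.89 to 5.92.

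**Figure D3:**
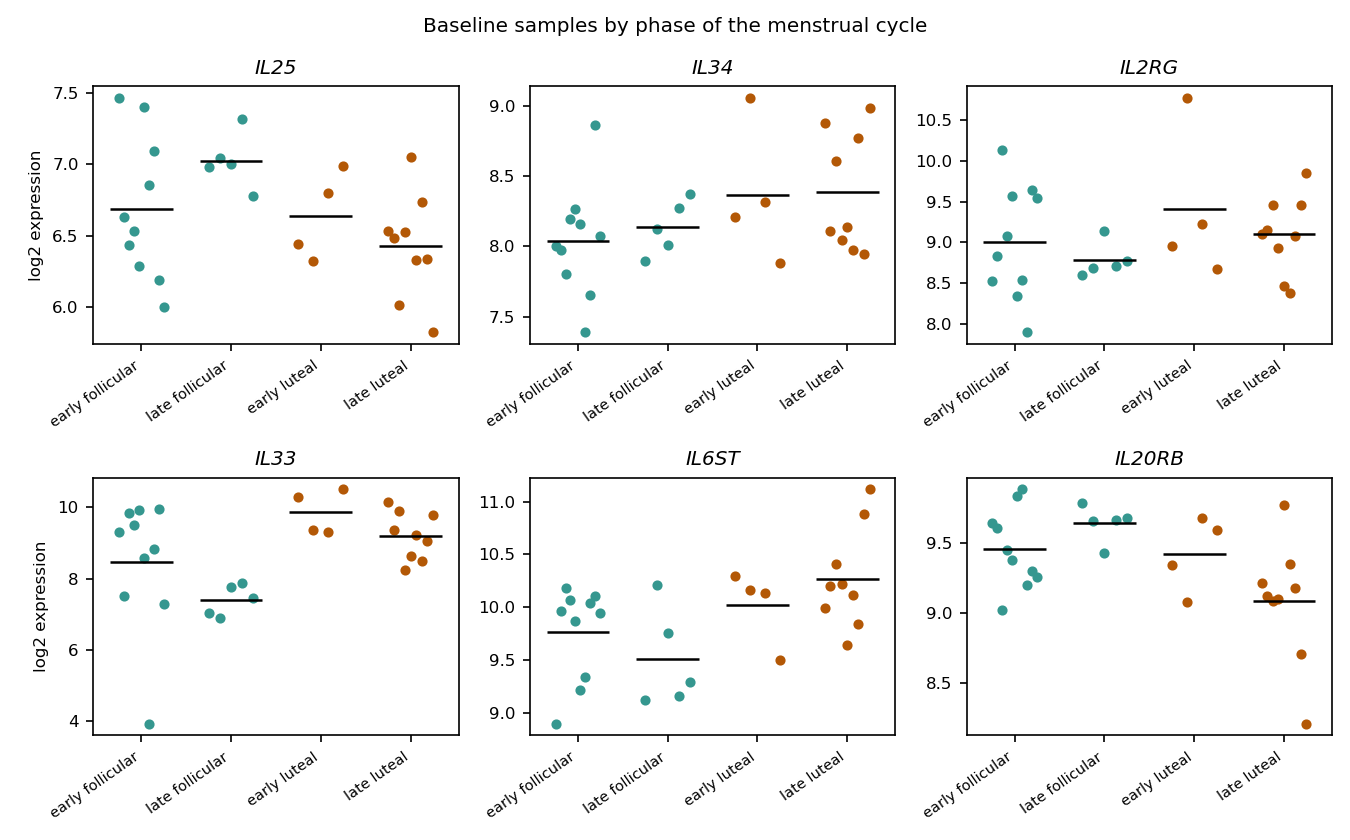
Log2 expression (vertical axes) of IL25, IL34, IL2RG, IL33, IL6ST and IL20RB in the 28 baseline samples by phase (10, 5, 4 and 9 samples in cycle order), with points for samples and bars for means. The 5 late follicular samples of IL33 lie between 6.91 and 7.89, below all luteal samples, a separation picked from the values and not counted in other genes.

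Baseline samples spread far more in some of these genes than in others, and samples of 1 animal could lie far apart. Over the 28 baseline samples, most of them in pairs from 1 animal, the median SD of the 66 genes was 0.496, and 12 genes had an SD above 1. IL19, an epithelial member of the IL10 family, had the widest spread (SD 2.80, levels from 3.64 to 12.39), followed by CCL20 (SD 2.62, 4.07 to 12.47), CXCL10 (SD 1.67) and IL23A (SD 1.60, 5.84 to 12.83). IL17RA (SD 0.193) and CCL21 (SD 0.194) varied least.

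CCL20 and IL19 were high in the same samples. This was seen in the values and then counted, so no test was made of it. The 8 highest baseline levels of CCL20 were 12.47, 12.05, 11.42, 11.08, 10.99, 8.21, 8.20 and 7.77, and the next was 6.53. The same 8 samples had the highest levels of IL19, at 12.39, 9.46, 11.22, 11.52, 9.96, 9.24, 8.48 and 8.05 in that order, and the next was 7.43.

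These 8 samples were 4 early follicular and 4 late luteal. In single animals CCL20 was 11.08 in the late luteal and 6.36 in the early follicular sample of BB0499, and 6.05 in the early luteal and 12.47 in the early follicular sample of BB173. The 5 late follicular samples had CCL20 levels of 4.64, 4.88, 5.05, 5.16 and 5.34, and the 4 early luteal samples 4.17, 5.39, 6.03 and 6.05. CXCL13, CXCL6 and IL23A each shared 7 of their own 8 highest samples with CCL20. CCL4L1, CCL5, IL2RG and IL33 shared 6 each, and further genes 5. In the 8 samples the common leukocyte score lay between 9.67 and 11.17, against a mean of 9.53 over the 28 baseline samples. Some samples outside the 8 lay in the same range. The score was 10.97 in the early luteal sample of BB405 and 10.07 in the early follicular sample of PPi2. It was 9.77 in the late luteal sample of BB770 and 9.73 in that of BB0540, which had the lowest CCL20, 4.07. The remaining baseline samples lay below 9.67. The part of tissue makeup in this overlap was not tested. The DMPA 2D2 samples of CCL20 lay at 4.81, 7.24 and 10.68, and those of LNG 5th at 4.58, 5.62 and 6.98, without the highest baseline levels in either arm.

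**Figure D4:**
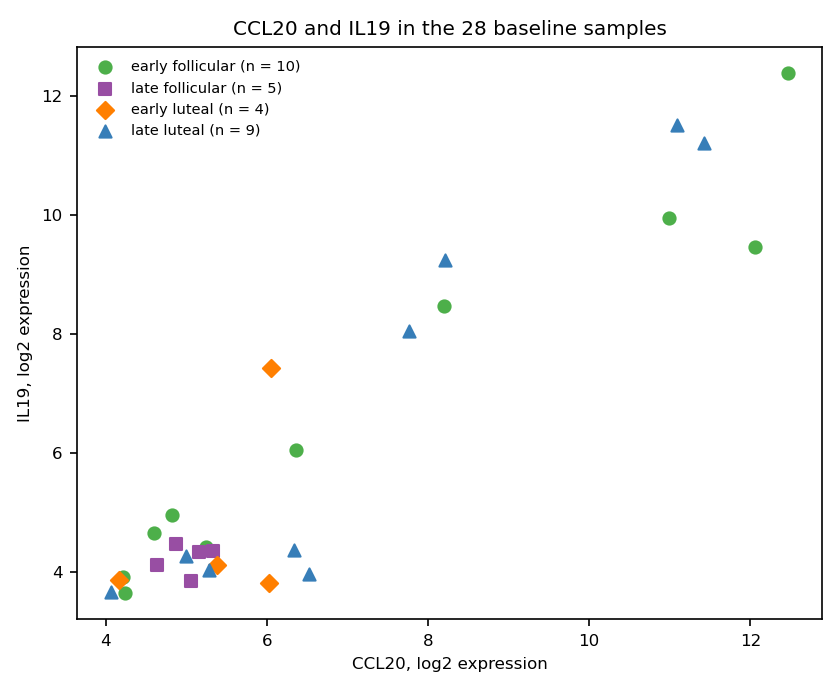
IL19 (vertical axis) against CCL20 (horizontal axis), both log2 expression, in the 28 baseline samples, with a symbol for each cycle phase. The 8 samples with CCL20 at 7.77 or above are also the 8 with the highest IL19, and none of them is late follicular or early luteal.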

How the data were processed

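RNA from vaginal pinch biopsies was measured on 58 Affymetrix Rhesus Macaque Genome arrays. The authors deposited 1 column of log2 values per array, from 1.37 to 14.57, with array medians between 6.07 and 6.25. The submitters' processing notes name affy and Partek, and they do not state how arrays were normalized. No further normalization was applied. From 52865 probe sets, 158 control sets were dropped, and 31624 of the rest reached the 40th percentile of the mean (5.53). Of all probe sets 24969 carry 1 symbol in the platform annotation, 361 several and 27535 none, and symbols were used as annotated. The duplicate array of 1 late follicular sample and its partner (r = 0.961) were averaged, leaving 57 samples.

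Linear models from limma 3.58.1 (R 4.3.3) took the animal named in the labels as a fixed block, since each animal gave treated and baseline biopsies. P values were adjusted by Benjamini-Hochberg over all 31624 probe sets, and a gene passed under 0.05. All 57 samples entered the treatment fit, and the 28 baseline samples the fit by phase. The fits were tested on simulated data. The number of arrays limits the precision, and the files used hold no scan date or batch.

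Marker scores are means of log2 values of a list, compared by a two-sided exact permutation test that kept to each animal's own samples, with 60 tests adjusted together. Besides those given in the report, the Langerhans cell list had 0 of 2 genes tested, and at DMPA 2D2 the B and plasma cell list had 0 of 8 tested markers passed, the natural killer list 1 of 8 higher, the mast cell list 1 of 5 higher, the endothelium list 1 of 10 lower, the fibroblast list 0 of 8, the smooth muscle list 0 of 6 and the basal keratinocyte list 2 of 3 higher. Genes were named where they passed, up to 12 in each direction, otherwise the 3 with the smallest p, with a list of genes always named and, from inspection, CCL25, CXCL9, IL13RA2 and IL19. The genes, lists and tests were chosen with earlier results of these data known. Alternatives changed the filter, centring, block, weights, probe set choice, covariates, phases, duplicate and (A-) arrays, and left out each animal.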

Additional observations from a re-analysis of the deposited data

Results flagged for a closer look

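A sample stood far from the others of its group, by Dixon's criterion, in 19 of 264 groups checked over 33 genes, where chance gives about 5%. In the LNG 5th group, BB4800 was low for CXCL17 (7.50), IL15 (6.87), IL20RA (6.42) and IL6R (7.86), and BB4870 was low for IL11RA (6.18) and high for IL4I1 (6.86). BB4870 was also high for CXCL12 at LNG 7th (9.17), low for IL11RA in its late luteal sample (6.43) and high for IL37 in its early follicular sample (9.02). BB770 was low for IL33 at DMPA 2D2 (8.27) and DMPA 1D4 (7.91), and BB521 was high for IL37 at DMPA 1D4 (6.71).

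Among baseline samples, the early luteal group held BB981 low for CCR6 (5.33), BB405 high for CXCR3 (9.36) and BB173 high for IL20RA (9.69). The early follicular group held BB108 high for CCR7 (9.35), BB981 low for IL2 (7.42) and BB967 low for IL33 (3.93). The late luteal sample of BB0540 was low for CXCL17 (10.4).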

How the results depend on the processing

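Counts of the 66 genes that passed stayed within 1.5 times in the other fits, with these exceptions. At DMPA 2D2 (13 genes) the count was 0 with the GAPDH 3′ minus 5′ covariate and 8 with no replicate block, and leaving out 1 animal at a time gave 8 to 15. At DMPA 1D4 (10 genes) it was 2 with the GAPDH covariate, 17 with array weights, 6 with the leukocyte score, 4 with no replicate block and 0 with the stroma score, and 4 to 14 with 1 animal left out. At LNG 5th (0 genes) it was 1 with 1 probe set per gene, 6 without the (A-) array, 3 with array weights, 2 with baseline phases as separate groups, 2 with the brightness minimum raised to the 60th percentile, 3 with the leukocyte score, and 0 to 6 with 1 animal left out. At LNG 7th (0 genes) it was 6 with array weights, 3 with phases as separate groups, and 0 to 1 with 1 animal left out. Luteal against follicular (0 genes) gave 1 with 1 probe set per gene, 1 with arrays centred on their median, 2 with a random replicate block, and 0 to 1 with 1 animal left out, the 1 without BB108. Late luteal against early follicular (0 genes) gave 2 with the phases fitted on all samples and 2 with a random replicate block. The number of passing probe sets over the whole array also changed between fits, so a changed count need not be particular to these genes. At LNG 7th, for example, 3572 of all 31624 probe sets passed with array weights and 1950 with phases as separate groups. The causes were not tested.

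The sign turned in 5 cases: IL2 at DMPA 2D2 with the GAPDH covariate (-0.0043), IL27RA on its dimmest kept probe set at DMPA 2D2 (-0.0714) and DMPA 1D4 (-0.21), CCL21 at LNG 5th on its second probe set (1.33), and IL4R between early luteal and late follicular on its second probe set (-0.57). Of 656 values for the 23 called pairs of gene and comparison, 536 kept direction and call, 117 lost the call and 3 turned sign. Of 821 values for 30 pairs not called, 790 kept, 29 gained a call and 2 turned sign. The difference between the arms has no value from 1 arm's animals alone.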
